A study of Mus musculus with 8 samples.

Results

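Apoa1, Apoa5, Apoe and Apom, 4 apolipoprotein genes of the liver, were described in Eps8KO mice against WT mice. They were selected on their gene symbols with the Eps8KO over WT ratios of these arrays already known, so those ratios, in each dye orientation and averaged, are given as a description and no test of them is reported. They are 4 of 8789 named genes. Apolipoproteins are the proteins on the surface of lipoproteins, the particles that carry cholesterol, triglycerides and other lipids through the blood, and the liver is the main source of most of them. ApoA-I builds the shell of high-density lipoprotein (HDL) and ApoM is carried mostly by the same particle, where it carries sphingosine-1-phosphate. ApoA-V promotes the clearance of triglycerides by lipoprotein lipase, and ApoE is the ligand through which remnant particles are taken up by receptors of the LDL receptor family.

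The Eps8KO livers came from 4 male Eps8KO mice, which lack Eps8, a protein that caps and bundles actin filaments, in all tissues. The mice were on a C57BL/6 background. The control was a single pool of WT liver RNA from male mice. All animals were 17 weeks old. The size of the WT pool differed between the descriptions, with 5 mice listed by number, 6 stated for labelling and 4 for the design. As 1 pool it carries no spread between WT mice. Each Eps8KO liver was hybridised to 2 two-colour cDNA arrays, once with its cDNA in Cy5 and the WT pool in Cy3, and once with the dyes exchanged. The 8 arrays held 17968 to 18802 values each out of 20355 spots, as log2 ratios. Positive values below mean more signal from Eps8KO than from WT. The deposited tables hold no spot intensities, so neither the level of a gene nor its signal over background was known, and precision is set by the small number of arrays. None of the named probes was for Eps8 (0 probes), and the knockout could not be checked on these arrays. The study also states that Eps8 is not expressed in liver. In bulk liver RNA, fewer cells of a type and less RNA per cell cannot be told apart.

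The names of the spots rest on a shift of 32 between the row numbers of the values and the probe numbers of the platform, which was found from the values. Over 2001 shifts tried, this one gave the lowest median ratio of 31 probes of acute phase genes (-0.99, against -0.24 at the next shift). It also gave the smallest median spread between mice of 378 probes of liver and housekeeping genes (0.932, against 1.04 at the next shift). The spread of a probe is the sum of its log2 SDs between mice in each dye orientation. Within 2500 probe numbers of the spots described here, the spread did not put this shift first. There it ranked 407 of 2001 around Apoa1, 597 and 3 around the probes of Apoa5, 864 around Apoe and 48 around Apom. Genes of strong response lay close to some of the spots. Hpx and Hp, coding for plasma proteins that bind haem and haemoglobin, lay 14 and 22 probe numbers from Apoa5 probe 1 and had log2 ratios of -2.10 and -2.45, below 0 in 4 of 4 mice. Fgg, a fibrinogen chain, lay 112 probe numbers from Apoe and had a log2 ratio of -1.56, also below 0 in 4 of 4 mice. Car3, a carbonic anhydrase, lay 124 probe numbers from Apom with a log2 ratio of 1.51, above 0 in 4 of 4 mice. Other acute phase genes nearby did not read low, with Mbl2 at 1.20 ± 0.74 (SD, n = 3 mice with a value) only 7 probe numbers from Apoa1 and Hamp at -0.16 ± 0.58 (SD, n = 4 mice) only 4 from Apoa5 probe 1. Hpx, Hp and Fgg are on the list of acute phase genes that took part in finding the shift, so their low ratios are no separate check of it. All values below are given under this naming.

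In the mouse genome, Apoa1 and Apoa5 are neighbours on chromosome 9, with only Apoc3 and Apoa4 between them among protein-coding genes. Apoe follows Apoc2, Apoc4 and Apoc1 on chromosome 7, and Apom lies on chromosome 17 next to Bag6. The start regions of the 4 genes are shown to place them and because the list of regulators described further on includes nuclear receptors that read the half-sites AGGTCA and GGGTCA. Each is a window of 300 bases around the RefSeq start of the gene in GRCm38.p6, printed 5′ to 3′ on the strand of the gene, with every GGGTCA or its complement TGACCC in capitals. For Apoa5 and Apoe the first of 2 and 3 windows in the table is given.
Apoa1 promoter, chr9:46228380-46228679, plus strand: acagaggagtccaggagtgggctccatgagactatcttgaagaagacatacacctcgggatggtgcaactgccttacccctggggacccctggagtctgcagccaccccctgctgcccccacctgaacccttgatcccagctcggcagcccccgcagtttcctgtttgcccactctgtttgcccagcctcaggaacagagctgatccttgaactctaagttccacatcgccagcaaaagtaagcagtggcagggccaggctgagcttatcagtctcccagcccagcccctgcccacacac
Apoa5 promoter, chr9:46268358-46268657, plus strand: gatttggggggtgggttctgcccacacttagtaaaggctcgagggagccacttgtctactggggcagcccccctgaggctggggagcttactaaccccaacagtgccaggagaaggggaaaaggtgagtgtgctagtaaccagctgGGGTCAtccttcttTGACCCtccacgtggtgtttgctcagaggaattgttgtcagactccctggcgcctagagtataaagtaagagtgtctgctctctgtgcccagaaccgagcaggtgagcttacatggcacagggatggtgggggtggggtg
Apoe promoter, chr7:19699139-19699438, minus strand: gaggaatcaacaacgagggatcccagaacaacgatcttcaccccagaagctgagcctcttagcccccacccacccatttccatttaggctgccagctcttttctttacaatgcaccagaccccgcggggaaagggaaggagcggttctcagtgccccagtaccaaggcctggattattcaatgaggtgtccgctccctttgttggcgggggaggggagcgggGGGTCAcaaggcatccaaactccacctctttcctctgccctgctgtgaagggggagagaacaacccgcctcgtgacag
Apom promoter, chr17:35131752-35132051, minus strand: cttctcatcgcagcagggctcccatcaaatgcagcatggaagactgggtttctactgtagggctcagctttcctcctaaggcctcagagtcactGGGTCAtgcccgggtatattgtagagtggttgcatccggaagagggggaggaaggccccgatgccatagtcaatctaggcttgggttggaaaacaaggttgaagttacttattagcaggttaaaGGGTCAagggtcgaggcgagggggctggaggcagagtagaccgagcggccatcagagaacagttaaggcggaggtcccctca
The half-site GGGTCA, searched on both strands, was found 2 times in the window of Apoa5, once in that of Apoe, 2 times in that of Apom and not in that of Apoa1. Of 27025 genes with such a window, 13.5% held it. The half-site AGGTCA, in 16.0% of all windows, was in none of the 4, and neither were CCAAT (37.9%), GTTAAT (7.20%) or GGGCGG (35.9%). TATAAA, in 14.2% of all windows, was found in that of Apoa5 alone among the 4, and none of the matches overlapped another. A match says only that these letters are in the window.

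Averaged over both dye orientations, the ratios of all 4 genes were small. Apoa1, Apoe and Apoa5 lay slightly above 0 and Apom below 0, at folds of 1.27, 1.17, 1.15 and 0.788. All 4 means were within 1.6-fold, the threshold used in the study. The same genes differed far more between the orientations: every gene read above 0 on all 4 arrays with Eps8KO in Cy5 and below 0 on all 4 arrays with Eps8KO in Cy3, with Apoa5 as the mean of its 2 probes.

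Apoa1, the core protein of HDL, was measured by 1 probe. With Eps8KO in Cy5 its log2 ratios were 1.26, 1.44, 1.22 and 1.34 in mice 1 to 4, and with Eps8KO in Cy3 they were -0.32, -0.57, -0.65 and -1.01. The orientations did not overlap, with means of 1.32 ± 0.098 and -0.64 ± 0.29 (SD, n = 4 mice each). The average of both orientations was 0.47, 0.44, 0.29 and 0.16 in mice 1 to 4. All 4 mice were thus above 0, with a mean of 0.34 ± 0.14 (SD, n = 4), and 85.8% of 15455 features lay lower.

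Apom, the sphingosine-1-phosphate carrier of HDL, was the only one of the 4 genes with a mean below 0. Its log2 ratios with Eps8KO in Cy5 were 0.44, 0.24, 0.44 and 0.63 in mice 1 to 4, and with Eps8KO in Cy3 they were -0.95, -1.23, -0.89 and -1.44. The orientation means were 0.44 ± 0.16 and -1.13 ± 0.25, again without overlap. Averaged over the orientations, Apom stood at -0.25, -0.50, -0.23 and -0.40 in mice 1 to 4, below 0 in 4 of 4, with a mean of -0.34 ± 0.13 (SD, n = 4). Only 15.0% of features lay lower.

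Apoe, the ligand of remnant clearance, had the widest spread between mice. With Eps8KO in Cy5 its log2 ratios were 1.21, 0.79, 1.48 and 1.42 in mice 1 to 4, and with Eps8KO in Cy3 they were -0.51, -0.83, -0.45 and -1.29. The means of the orientations were 1.23 ± 0.31 and -0.77 ± 0.39. The mice averaged 0.35, -0.02, 0.52 and 0.06, so that 3 of 4 were above 0 and the mean of 0.23 ± 0.25 (SD, n = 4) was smaller than its own SD.

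Apoa5, which acts on plasma triglycerides at low abundance, was the only one of the 4 with 2 probes, and these did not read alike. Probe 1 behaved as the other genes did, with log2 ratios of 0.58, 0.47, 0.89 and 0.66 in mice 1 to 4 with Eps8KO in Cy5 and of -0.57, -0.58, -0.54 and -0.96 with Eps8KO in Cy3. Its mean was -0.01 ± 0.13 (SD, n = 4), with 2 of 4 mice above 0. Probe 2 read 0.47, 0.74, 0.62 and 0.36 with Eps8KO in Cy5 and 0.25, -0.01, 0.27 and 0.65 with Eps8KO in Cy3. It was thus above 0 on 7 of 8 arrays, its orientations overlapped, and its mean was 0.42 ± 0.068, above 0 in 4 of 4 mice. The gene mean of 0.21 ± 0.069 (SD, n = 4), with mice at 0.18, 0.16, 0.31 and 0.18, therefore rests on the second probe. Which of the probes reads the transcript more faithfully was not tested.

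**Figure D1:**
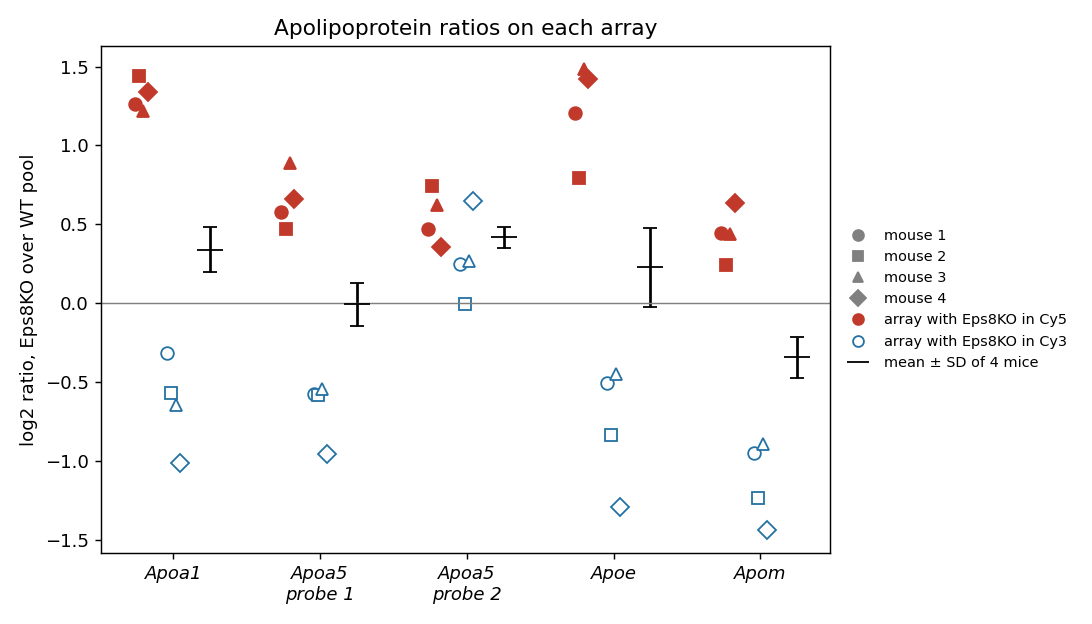
Log2 ratio of Eps8KO over the WT pool for each probe, array by array. Filled red symbols are arrays with Eps8KO in Cy5, open blue symbols arrays with Eps8KO in Cy3, the shape gives the mouse, and the black bar gives the mean ± SD of 4 mice after averaging both arrays of each. Except for Apoa5 probe 2, every filled symbol lies above 0 and every open symbol below it.

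Across all features, 2.63% passed 1.6-fold with an unadjusted p under 0.05 in limma. The 4 genes, with means within 1.6-fold, counted 0 of 4 there, from which nothing is read since their ratios were known when they were chosen. The features that passed were 407 of 15455, 164 higher and 243 lower, and 0 passed an adjusted p under 0.05 in limma. Without adjustment, limma put 333 features higher and 478 lower. In a fit on 8 arrays with a dye term and the mouse as a random block, 35 of 11727 features passed the adjusted threshold. The correlation of the arrays of a mouse was estimated there at -0.002, so that fit took them as nearly independent replicates. With mouse means of spots with a value on all 8 arrays, 12 of 11602 features passed. The 4 genes had a median log2 ratio of 0.22, against 0.02 for all features.

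The change of sign with the dye was measured on all 4 genes. The 4 arrays with Eps8KO in Cy5 lay above the 4 with Eps8KO in Cy3 without overlap for 4 of 4 genes, with Apoa5 as the mean of its probes. The same held for 9.86% of the 11727 features with values on all 8 arrays (1156). A separation without overlap in the opposite direction was found for 1743 of these features and for 0 of the 4 genes. Ratios above 0 on all 4 arrays of the first kind and below 0 on all 4 of the second were found for 4 of 4 genes and for 5.71% of features (670). The separation was widest for Apoe and Apoa1, at 2.00 and 1.95 log2 units between the orientation means, followed by Apom at 1.57 and Apoa5 at 0.78. Across all 11727 features the means of the orientations correlated with r = -0.39, which describes features of the same 8 arrays and has no test. On the array of mouse 4 with Eps8KO in Cy3, Apoa1, Apoe, Apom and probe 1 of Apoa5 each had their lowest ratio.

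**Figure D2:**
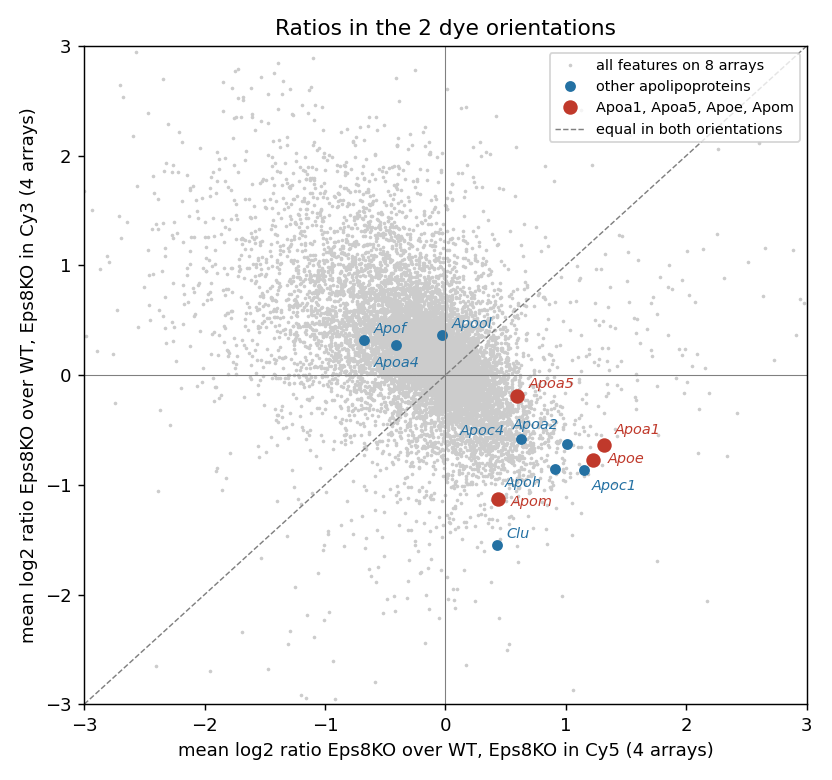
Mean log2 ratio of Eps8KO over WT for each feature on the 4 arrays with Eps8KO in Cy5 (x axis) and on the 4 with Eps8KO in Cy3 (y axis). Apoa1, Apoa5, Apoe and Apom (red) and Apoa2, Apoc1, Apoc4, Apoh and Clu (blue) lie in the lower right quadrant, above 0 in one orientation and below 0 in the other. Apoa4, Apof and Apool (blue) lie in the upper left quadrant, with the opposite signs. Of 11727 features, 89 lie outside the axes and are not drawn.

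The same separation can be written as the ratio of the dyes irrespective of genotype, log2 Cy5 over Cy3 averaged over both arrays of a mouse, which restates the gap between the orientations and is given with no test. It averaged 0.98 ± 0.16 for Apoa1, 0.998 ± 0.25 for Apoe, 0.78 ± 0.17 for Apom and 0.39 ± 0.064 for Apoa5 (SD, n = 4 mice), positive in 4 of 4 mice for each gene, while the median over all features was -0.23. As folds of Cy5 over Cy3 these were 1.97, 2.00, 1.72 and 1.31. Between 90.2% and 97.8% of all features lay lower than each of these genes. The part of the dye in the Eps8KO over WT ratios of these genes was not tested beyond these values.

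The genes were then set against each other on the same array. Apom read lower than Apoa1 on 8 of 8 arrays, by 0.24 to 1.20 log2 units, with a mean difference between Apoa1 and Apom of 0.68 ± 0.19 (SD, n = 4 mice). It also read lower than Apoe on 8 of 8 arrays, by a mean of 0.57 ± 0.13, and lower than Apoa5 on 7 of 8 arrays, by a mean of 0.55 ± 0.093. These are differences between ratios, not between levels. Among the other 3 genes no order held. Apoa1 exceeded Apoa5 on 4 of 8 arrays and Apoe on 5 of 8, with mean differences of 0.13 ± 0.18 and 0.11 ± 0.28, and Apoa5 exceeded Apoe on 4 of 8, with a mean difference of -0.02 ± 0.20. Each of these last 3 differences was smaller than its spread between mice, and the order of Apoa1, Apoe and Apoa5 was not resolved.

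The genes with the most similar ratios were found by the root mean square (RMS) difference over the 8 arrays, among 6565 named genes measured on all of them. The genes nearest to Apoa1 were Cyp2d10 and Cyp2d12, cytochromes P450 of the liver, and Abraxas2, a subunit of a deubiquitinase, at RMS differences of 0.182, 0.187 and 0.220 log2 units. Nearest to Apoe were Gstp1, a glutathione transferase, at 0.195, Cyp2d12 at 0.260 and Foxh1, a forkhead factor, at 0.262. Nearest to Apom were Tgm2, a transglutaminase, at 0.201, Rplp0, a ribosomal protein, at 0.212 and Ppia, cyclophilin A, at 0.228. Nearest to Apoa5 were Wbp2, Gp2 and Ccdc32 at 0.155, 0.163 and 0.168. All 12 entries showed the same pattern as the gene they resembled, with orientation means from 0.36 to 1.34 with Eps8KO in Cy5 and from -1.31 to -0.09 with Eps8KO in Cy3. That likeness follows from the way they were chosen, by RMS difference over the same 8 arrays.

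Of 20 other apolipoproteins and related genes listed, 10 were on the arrays and 10 had a value in all 4 mice. Their median log2 ratio was 0.03, and 0 of 10 passed 1.6-fold with an unadjusted p under 0.05. Apoa2, the second protein of HDL, averaged 0.19 ± 0.26, and Apoc1, a small exchangeable apolipoprotein encoded beside Apoe, 0.14 ± 0.17 (SD, n = 4). Apoh, a phospholipid-binding plasma protein, averaged 0.03 ± 0.19. These genes also read above 0 on all 4 arrays with Eps8KO in Cy5 and below 0 on all 4 with Eps8KO in Cy3, with orientation means of 1.01 and -0.63 for Apoa2, 1.15 and -0.87 for Apoc1 and 0.91 and -0.85 for Apoh. Apoc4, the neighbour of Apoc1, averaged 0.03 ± 0.50, with orientation means of 0.63 and -0.58.

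Clu, clusterin or apolipoprotein J, a chaperone that is carried in part on HDL, had a log2 ratio of -0.56 ± 0.19, below 0 in 4 of 4 mice (limma unadjusted p = 0.00995, adjusted p = 0.838). It did not reach 1.6-fold, and its arrays separated by dye as well, at 0.43 with Eps8KO in Cy5 and -1.55 with Eps8KO in Cy3. Like Apom it was thus lower in Eps8KO on average and above 0 in the Cy5 orientation. The probes of Apoa4, which lies between Apoc3 and Apoa5, read -0.50 and 0.36 and left a mean of -0.07 ± 0.36. Apof, Apool and Apobr averaged -0.18 ± 0.61, 0.17 ± 0.40 and 0.34 ± 0.56, each smaller than its SD. Apoa4, Apof and Apool had orientation means of the opposite signs, below 0 with Eps8KO in Cy5 and above 0 with Eps8KO in Cy3. These were -0.41 and 0.27 for Apoa4, -0.67 and 0.32 for Apof and -0.03 and 0.36 for Apool. Apod, a lipocalin apolipoprotein, averaged -1.21 ± 1.37 from values on 4 of 8 arrays.

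**Figure D3:**
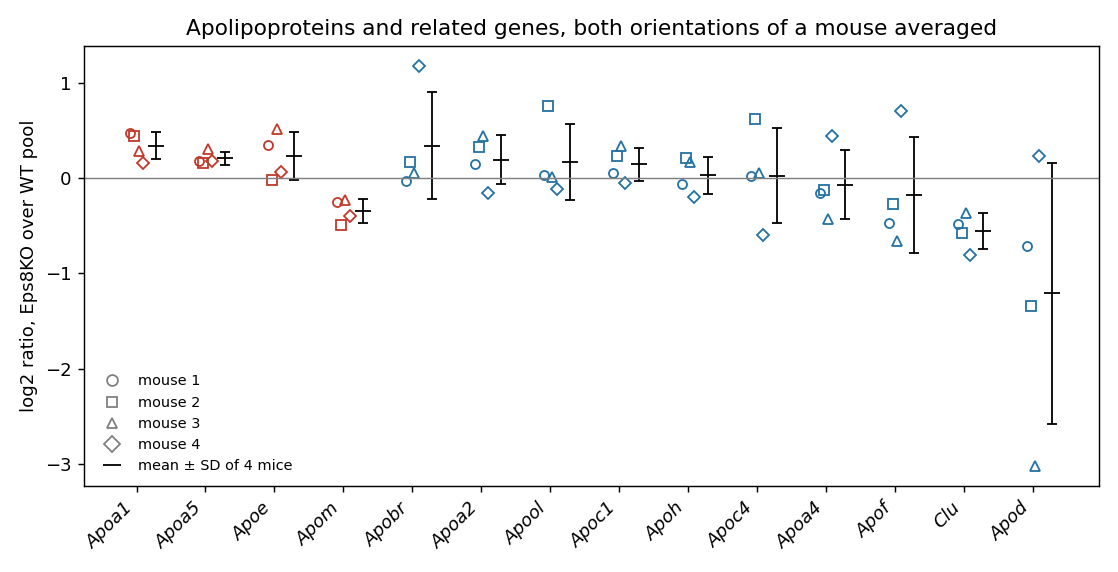
Log2 ratio of Eps8KO over the WT pool for each apolipoprotein or related gene, one symbol for each mouse after averaging both dye orientations, with the mean ± SD of 4 mice beside it. Apoa1, Apoa5, Apoe and Apom are in red, the others in blue from the highest mean to the lowest. Apom and Clu are below 0 in 4 of 4 mice, and Apoa1 and Apoa5 above 0 in 4 of 4.

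Around these genes, the lists of lipoprotein genes moved little. Of 108 genes listed besides the 4, 62 were on the arrays and 60 could be tested. Of these 1 was higher and 1 lower at 1.6-fold and an unadjusted p under 0.05, 0 passed the adjusted threshold in limma (without adjustment, 1 higher and 3 lower), and the median was 0.02, beside 0.02 for all features. At 1.6-fold and an unadjusted p under 0.05 in limma, 2.63% of all features passed. The counts of the single lipoprotein lists below are to be read beside that share. Sort1, sortilin, is a sorting receptor that handles ApoB particles. Its mean on the log2 scale was -0.74 ± 0.51 (SD, n = 4 mice, limma unadjusted p = 0.0299, adjusted p = 0.906). It changed sign with the dye, with orientation means of -2.55 with Eps8KO in Cy5 and 0.44 with Eps8KO in Cy3. Sort1 had 2 probes, of which 1 lacked a value on 3 of 8 arrays, so its dyes were not balanced. The probe with values on all 8 arrays read -4.13 to -2.25 with Eps8KO in Cy5. With Eps8KO in Cy3 it read -0.18 to 3.77, which leaves the direction of Sort1 unresolved. Nr2f2, COUP-TFII, a nuclear receptor that binds apolipoprotein promoters, had a log2 ratio of 0.72 ± 0.55 (limma unadjusted p = 0.0396, adjusted p = 0.906) and had a value on 7 of 8 arrays. It read -0.61, 0.04 and -0.23 in mice 2 to 4 with Eps8KO in Cy5. With Eps8KO in Cy3 it read 0.97, 0.39, 1.86 and 2.33 in mice 1 to 4. Mouse 1 lacked the Cy5 value, so the dyes were not balanced here either.

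Among 9 tested genes of lipoprotein assembly and lipid transfer, 0 passed and the median was 0.11, with means from -0.28 for P4hb, a subunit of the microsomal transfer protein complex, to 0.42 for Surf4, a cargo receptor for lipoprotein export. Of 13 receptors and their regulators, 1 passed (Sort1) and the median was -0.09, with Lrp1, a remnant receptor that takes up ApoE, highest at 1.25 ± 2.59. Of 10 lipases, lipase regulators and paraoxonases, 0 passed and the median was -0.04, with means from -0.66 ± 1.04 for Lpl, the lipase on which ApoA-V acts, to 0.28 ± 0.46 for Lmf2. Of 18 transcription factors of apolipoprotein genes, 1 passed (Nr2f2) and the median was 0.01, with means from -0.49 ± 1.03 for Sp1 to 0.92 ± 1.98 for Nr1d1. Hnf4a, a main driver of apolipoprotein transcription in hepatocytes, stood at -0.17 ± 1.86, a spread that leaves its direction unresolved.

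The 4 genes are products of hepatocytes, and plasma proteins of the liver were compared beside them. Of 6 tested plasma proteins that fall in the acute phase, 6 had means above 0 and 0 passed, with a median of 0.24, beside 0.02 for all features. Each of the 6 means was smaller than its own SD. The 4 apolipoproteins had a median of 0.22, with Apom at -0.34. Alb, albumin, stood at 0.30 ± 0.32 and Ttr, transthyretin, at 0.18 ± 0.21. Like the 4 genes, Ttr changed sign with the dye, with orientation means of 0.95 and -0.59. The same held for Pon1, at 0.84 and -0.50, and Fetub, at 0.66 and -0.62. The orientation means of Alb were 0.27 and 0.33, and Rbp4 and Serpina6 did not have values on all 8 arrays. Of 23 tested genes that rise in the acute phase, 15 were lower at 1.6-fold and an unadjusted p under 0.05, 0 were higher and 0 passed the adjusted threshold in limma (without adjustment and fold, 16 lower and 0 higher). Their median was -1.34, but probes of this list took part in finding the naming. Hp kept its sign in both orientations, at -2.26 to -0.38 with Eps8KO in Cy5 and -4.11 to -3.19 with Eps8KO in Cy3. Its orientations were no closer than those of the 4 genes, with a log2 Cy5 over Cy3 of 1.08, beside 0.39 to 0.998 for them. The gene means of Apoa1, Apoa5, Apoe and Apom did not keep their sign, and neither did that of Apoa4, at -0.41 and 0.27. Apoa4 probe 1 kept its sign, with orientation means of -0.43 and -0.57. So did the orientation means of Apoa5 probe 2, at 0.55 and 0.29, with 7 of 8 arrays above 0. Not all genes of the acute phase list kept theirs, as Ambp had orientation means of 0.26 and -1.56. These contrasts were not tested.

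Markers of hepatocytes, the cells that make most plasma apolipoproteins, had a median log2 ratio of 0.24 over 8 tested genes, of which 1 was higher (Cyp3a11, at 0.86 ± 0.41) and 0 lower. Their median Cy5 over Cy3 was 0.71. Alb and Ttr are on this list and also on that of plasma proteins that fall in the acute phase. Both medians of 0.24 are the midpoint of these same genes. Markers of Kupffer cells and macrophages, which also make Apoe, had a median of 0.05 over 9 tested genes, from -0.56 to 1.01, and 0 passed. The medians were -0.10 for 7 markers of stellate cells and fibroblasts, -0.44 for 5 of endothelium, -0.05 for 5 of bile ducts, -0.09 for 11 of lymphocytes and neutrophils, 0.10 for 3 of red blood cells and 0.04 for 4 of adipocytes. Of these, 1 bile duct and 1 lymphocyte or neutrophil marker were lower and 0 were higher, while 2.63% of all features passed in either direction. The part of cell composition in the apolipoprotein ratios was not tested.

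**Figure D4:**
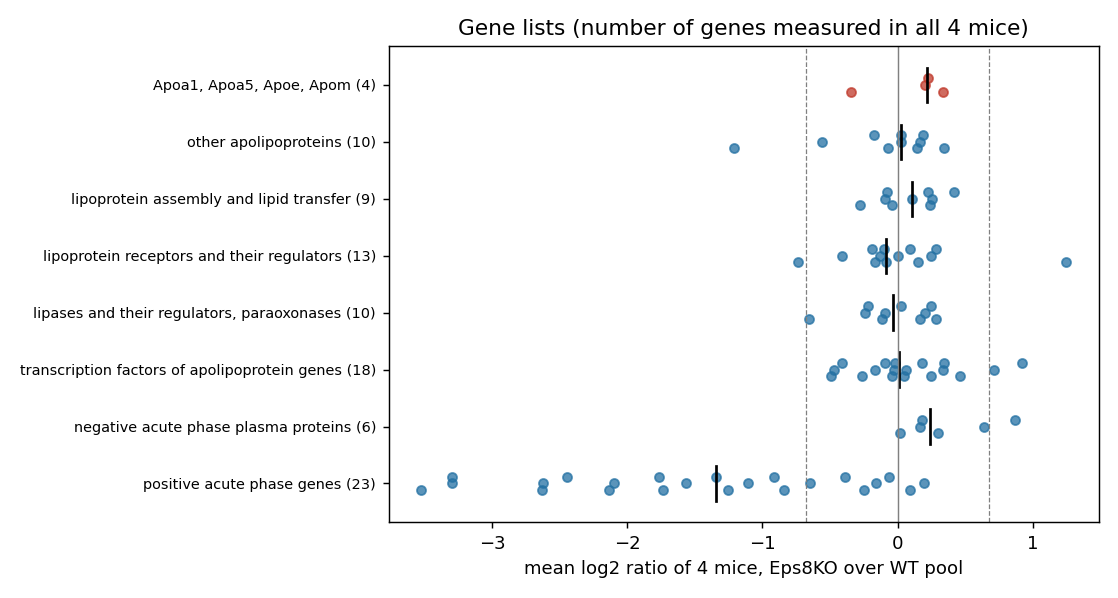
Mean log2 ratio of 4 mice for each tested gene, by list, with the number of genes in brackets. Black bars are medians and dashed lines mark 1.6-fold. The 4 apolipoproteins (red) lie between -0.34 and 0.34 inside the dashed lines, and 15 of 23 positive acute phase genes passed the threshold below the left line.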

How the data were processed

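Liver RNA of 4 Eps8KO mice was profiled on 8 cDNA arrays against 1 WT pool. Each deposited value is a log2 ratio, Cy5 over Cy3, and the authors normalised by total intensity in MIDAS. Their methods add a background check in both channels (signal to noise threshold of 2) and a flip dye check. Whether the deposited log2 ratios had passed these steps is not given in the sources used here. Array medians were -0.28 to -0.08, and 48 to 103 spots of an array shared its highest value.

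Rows were named with a shift of 32 (12367 named, 7988 unnamed), with symbols and promoter sequences of RefSeq in GRCm38.p6. Ratios of arrays with Eps8KO in Cy3 were multiplied by -1, then averaged within a mouse and over the probes of a gene. A mouse with a value on only 1 of its arrays kept that value. Features present in each of 4 mice (15455) were fitted with lmFit and eBayes of limma 3.58.1 (R 4.3.3) against 0, two-sided, with Benjamini-Hochberg adjustment. The fit was tested on simulated data. Python 3.11.15, NumPy 2.4.6, pandas 2.3.3 and Matplotlib 3.10.9 were used otherwise. All 8 value columns were used.

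The members and lists were chosen with earlier results of these data known. Besides the 4 genes, the text names the other apolipoproteins measured, lipoprotein genes past 1.6-fold and an unadjusted p under 0.05 or at the ends of a list, and the 3 genes nearest in pattern to each member. Hpx, Hp, Fgg, Car3, Mbl2, Hamp, Alb, Ttr, Pon1, Fetub, Rbp4, Serpina6, Cyp3a11 and Hnf4a were added after their values were seen. Alternatives were array medians set to 0, 1 orientation alone, values on all 8 arrays, a flip dye filter at 1 log2 unit, a dye term with the mouse as a random block, no naming shift, probe medians and each mouse left out.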

Additional observations from a re-analysis of the deposited data

Results flagged for a closer look

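Of 12 groups of 4 values tested for a single outlying sample, 2 were picked out, both for Apoa5, and chance picks out about 1 group in 20. Mouse 3 had the highest mean log2 ratio of Apoa5, at 0.3075, while the other mice lay between 0.157 and 0.18. On the arrays with Eps8KO in Cy3, the value of Apoa5 averaged over both probes was lowest in mouse 2, at -0.2925.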

How the results depend on the processing

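The signs of the 4 genes depended on the dye orientation used. With arrays carrying Eps8KO in Cy5 alone, the log2 ratios were 1.32 for Apoa1, 0.60 for Apoa5, 1.23 for Apoe and 0.44 for Apom, and the sign of Apom reversed. With arrays carrying Eps8KO in Cy3 alone they were -0.64, -0.19, -0.77 and -1.13, and those of Apoa1, Apoa5 and Apoe reversed. Without the naming shift, rows of other probes gave -0.16 for Apoa1 and -0.23 for Apoa5, both reversed, 0.13 for Apoe and -0.35 for Apom. With each mouse left out, the values ranged from 0.29 to 0.40 for Apoa1, 0.17 to 0.22 for Apoa5, 0.13 to 0.31 for Apoe and -0.38 to -0.29 for Apom. Leaving out mouse 2 or mouse 3 moved Apoe to 0.31 and 0.13, and neither changed its sign. With array medians set to 0 the 4 genes stood at 0.32, 0.19, 0.21 and -0.36. A filter that drops mice whose orientations differ by more than 1 log2 unit removed 4 of 4 mice for Apoa1, Apoe, Apom and probe 1 of Apoa5. Probe 2 of Apoa5 kept 3 mice, so that no gene had the value in all 4 mice that was required. The count of 407 features became 1572 with Eps8KO in Cy5 alone, 1953 with Eps8KO in Cy3 alone, 207 with values on all 8 arrays, 4 after the dye filter, 207 with the mouse as a random block and a dye term, and 0 at an adjusted p. It ranged from 492 to 571 without 1 mouse. The count of 2 other lipoprotein genes became 1 with medians set to 0, 7 and 11 in the Cy5 and Cy3 orientations alone, 1 with all 8 arrays, 0 after the dye filter, 1 with the block and 0 at an adjusted p, and ranged from 0 (without mouse 3) to 2 without 1 mouse. In these cases the cause was not tested, apart from the fewer features tested on all 8 arrays and after the dye filter. No paired analysis was possible because the WT pool is 1 sample and the mouse numbers pair no WT samples. Signal over background was not known, 4 mice limit the precision, and the names of the spots were not borne out close to the 4 genes.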
